A study of Mus musculus with 6 samples.

Results

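A set of 9 homeobox genes, Hoxa5, Hoxa7, Hoxa9, Hoxa10, Hoxb2, Hoxb3, Hoxb4, Meis1 and Pbx3, was followed in poly-A RNA of c-Kit+ mouse bone marrow, which is rich in stem cells and progenitors of the blood. The genes were taken by name, with no threshold on their values but with earlier results of these data known. All 9 were found among the 20097 genes listed for each library. The labels give 3 libraries of genotype WT (titled WT control 1 to 3) and 3 of genotype Runx1 KO (1 to 3), and no library of either group is labelled with any other allele or agent. Strain, age and sex, the way in which Runx1 was disrupted, and whether a library came from 1 animal or from pooled animals are not given in the sources used here. As nothing says that the 3 libraries of a group came from separate animals, the p-values measure only the spread between these libraries, which may be technical.

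HOX genes encode homeodomain transcription factors and lie in clusters named A to D, in which genes of the same number are paralogues. In blood formation the A and B clusters are mainly active in stem and early progenitor cells and are silenced as the cells mature. MEIS1 and PBX3 are homeodomain proteins of the TALE class, which bind DNA together with HOX proteins and strengthen their choice of site. HOXA9 with MEIS1 is known for driving self-renewal in normal and leukaemic progenitors, and the MLL methyltransferase complex is known for keeping HOX genes switched on.

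Promoter sequence was available in the RefSeq table (GRCm38.p6) for 6 of the 9 genes, of which Hoxa10 had 2 starts, giving 7 windows of 250 bases before a transcription start. The windows of the 3 genes with an entry that passed the test described below are shown, 5′ to 3′ on the strand of the gene, because these genes were higher together in the libraries labelled Runx1 KO. Capitals mark the letters TGTGGT, the core of the RUNX recognition sequence.
Meis1: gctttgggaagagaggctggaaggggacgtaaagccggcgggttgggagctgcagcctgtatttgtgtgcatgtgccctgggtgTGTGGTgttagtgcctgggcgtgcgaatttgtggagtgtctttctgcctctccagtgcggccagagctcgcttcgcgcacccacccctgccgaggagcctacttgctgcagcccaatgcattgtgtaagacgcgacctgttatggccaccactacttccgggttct
Hoxb4: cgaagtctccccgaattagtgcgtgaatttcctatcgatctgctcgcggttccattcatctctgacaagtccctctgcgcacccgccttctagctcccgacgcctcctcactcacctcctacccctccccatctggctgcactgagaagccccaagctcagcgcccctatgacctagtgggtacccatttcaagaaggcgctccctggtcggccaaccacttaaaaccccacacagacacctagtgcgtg
Hoxa5: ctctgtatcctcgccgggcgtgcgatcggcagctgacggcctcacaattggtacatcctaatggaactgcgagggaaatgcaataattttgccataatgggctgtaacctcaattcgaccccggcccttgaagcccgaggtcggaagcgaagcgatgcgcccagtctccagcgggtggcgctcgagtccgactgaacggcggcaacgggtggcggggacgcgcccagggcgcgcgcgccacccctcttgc
The windows lie at chr11:19018970-19019219 on the minus strand for Meis1, at chr11:96318017-96318266 on the plus strand for Hoxb4 and at chr6:52204588-52204837 on the minus strand for Hoxa5.

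Sets of letters were searched on both strands of the 7 windows: TGTGGT for RUNX, TGACAG for MEIS and TGATTGAT for PBX with HOX, none of which contains another. The RUNX letters were found in 1 window, that of Meis1, where the match begins 166 bases before the start, and in 14.05% of all 32851 promoter windows of the same length in the table. The MEIS letters (15.9% of all windows) and the PBX-HOX letters (0.670%) were in 0 of the 7 windows. These matches describe letters only, and binding was not measured here.

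Each library held between 23297526 and 26793380 reads over the listed genes, and 15410 genes entered the test. Values are normalised read counts, that is, reads divided by a size factor of the library, and log2 changes with standard errors (SE) come from limma on log2(normalised read count + 1), a scale that understates the change of weakly expressed genes. A gene is said to have passed when its limma p-value, adjusted by Benjamini-Hochberg over all 15410 genes, was under 0.05. Runx1, the targeted gene, went against its label: at 3031, 2799 and 3497 normalised reads it was lower where the label is WT than where the label is Runx1 KO, at 6648, 6720 and 5830 (log2 change 1.04, SE 0.10, limma adjusted p 0.00163). Per-gene values do not show whether part of the transcript was missing, so "under WT" and "under Runx1 KO" below mean only the libraries labelled so, and each direction runs from the first to the second. Kit, which encodes the receptor used to select the cells, was present in all 6 libraries. It had 7979 to 8471 normalised reads under WT and 11507 to 13684 under Runx1 KO. Kit itself passed, with a log2 change of 0.60 (SE 0.07, limma adjusted p 0.00346), and the call held whichever library was omitted.

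Of the 9 genes, 4 rose (Hoxa5, Hoxb3, Hoxb4 and Meis1), 0 fell, 4 did not pass (Hoxa7, Hoxa9, Hoxa10 and Pbx3) and Hoxb2 was too low to be tested. No gene fell at an unadjusted limma p under 0.05 either, and edgeR and DESeq2 each called 4 higher and 0 lower. Of all 15410 genes tested, 21.9% passed in either direction and 10.6% passed upwards. The count of 4 depended on single libraries: it was 2 without WT replicate 1, 2 without WT replicate 2, 1 without Runx1 KO replicate 2 and 2 without Runx1 KO replicate 3. The median log2 change of the 8 tested genes was 0.74, against -0.0042 over all tested genes. In 6 of the 8 (Hoxa5, Hoxa7, Hoxa10, Hoxb3, Hoxb4 and Meis1) every library labelled Runx1 KO lay above every library labelled WT; of all tested genes, 43.3% had groups that did not overlap, and 21.4% had them apart in this direction.

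**Figure D1:**
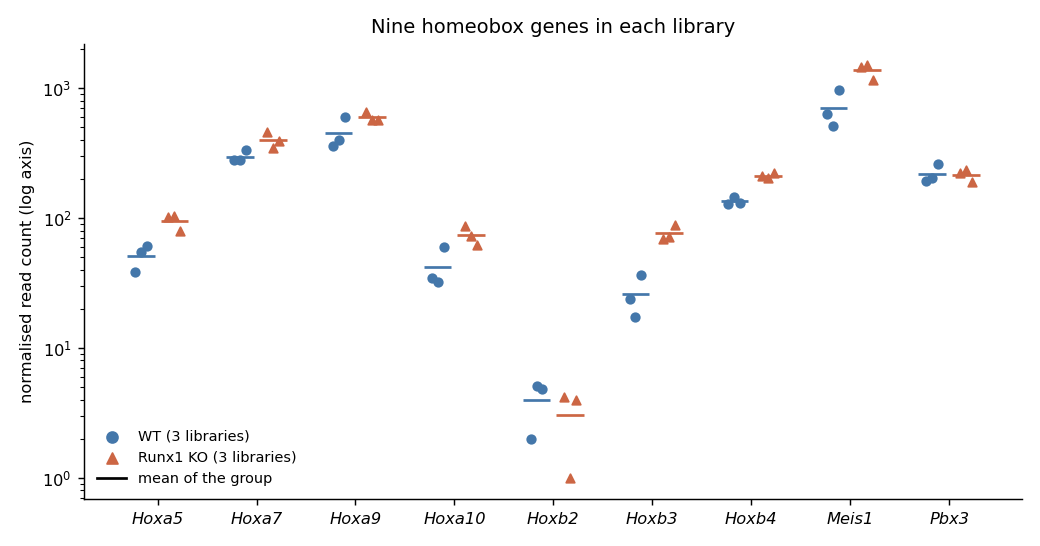
Normalised read count (log axis) of the 9 genes in each of the 6 libraries, with WT as circles, Runx1 KO as triangles and the mean of each group of 3 as a line. The groups are apart in Hoxa5, Hoxa7, Hoxa10, Hoxb3, Hoxb4 and Meis1 and overlap in Hoxa9, Hoxb2 and Pbx3.

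The DNA-binding HOX proteins of the A cluster come first. Hoxa9 (ENSMUSG00000038227; chromosome 6, 52223100 to 52231089, minus strand, GENCODE M21 on GRCm38), the cluster's main leukaemia-associated gene, had 359, 398 and 601 normalised reads under WT and 656, 566 and 566 under Runx1 KO. Its groups overlapped, because WT replicate 3 lay above 2 of the 3 libraries labelled Runx1 KO. The log2 change was 0.43 (SE 0.19, 95% interval -0.03 to 0.88) and did not pass (limma adjusted p 0.152). Without WT replicate 3 it was 0.65, with a limma adjusted p of 0.0218, so that this library decided the call.

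Hoxa7 (ENSMUSG00000038236; chromosome 6, 52214491 to 52221854, minus strand), the neighbour of Hoxa9, had 278, 279 and 331 normalised reads under WT and 455, 346 and 392 under Runx1 KO. The groups did not overlap, but WT replicate 3 and Runx1 KO replicate 2 were close. The log2 change of 0.42 (SE 0.14) did not pass (limma adjusted p 0.0659), although it did with library totals as scaling (0.0478). Exons of Hoxaas3, on the opposite strand, cover 20.4% of the exon bases of Hoxa7. Hoxa10 (ENSMUSG00000000938; chromosome 6, 52231197 to 52240854, minus strand), the neighbour on the other side of Hoxa9, had 34.6, 32.3 and 59.5 normalised reads under WT and 86.8, 72.3 and 61.7 under Runx1 KO. Again WT replicate 3 was far above the other 2 libraries of its group and just under the lowest library labelled Runx1 KO. The log2 change of Hoxa10 was 0.83 (SE 0.28, limma adjusted p 0.0754), and 1.10 without WT replicate 3 (limma adjusted p 0.0318).

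Hoxa5 (ENSMUSG00000038253; chromosome 6, 52201754 to 52204587, minus strand), a more anterior gene of the cluster, had 38.6, 54.5 and 60.4 normalised reads under WT and 101, 104 and 79.6 under Runx1 KO. Its 2 groups were apart, with the mean under Runx1 KO 1.86 times that under WT. The log2 change was 0.89 (SE 0.23, limma adjusted p 0.0328). The call held in the 9 other settings with all libraries. When single libraries were omitted it held only without WT replicate 3; over the 6 omissions the limma adjusted p of Hoxa5 ran from 0.0429 to 0.122 and its log2 change from 0.71 to 1.03.

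In the B cluster, Hoxb4 (ENSMUSG00000038692; chromosome 11, 96318267 to 96321638, plus strand), known for expanding blood stem cells when overexpressed, had 129, 145 and 130 normalised reads under WT and 211, 202 and 221 under Runx1 KO. These were the tightest groups among the 4 genes that rose, with SDs of 9.15 and 9.31 around means of 135 and 211 (n = 3 each). The log2 change was 0.65 (SE 0.12, limma adjusted p 0.0124). It narrowly missed the threshold without Runx1 KO replicate 2 or 3, with a limma adjusted p of at most 0.0522.

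Hoxb3 (ENSMUSG00000048763; chromosome 11, 96323326 to 96347930, plus strand), next to Hoxb4, had 23.7, 17.2 and 36.5 normalised reads under WT and 69.0, 71.4 and 88.5 under Runx1 KO. The lowest library labelled Runx1 KO was well above the highest labelled WT. Its log2 change was 1.58 (SE 0.30, 95% interval 0.88 to 2.29; limma adjusted p 0.0124), the largest among the 8 tested genes. The call held whichever library was omitted, with a limma adjusted p of at most 0.0489. In the annotation 52.9% of the exon bases of Hoxb3 also lie in exons of Hoxb3os, an RNA of the opposite strand. The libraries were stranded, but whether the counting used the strand is not given in the sources used here. It is therefore not known whether reads from the shared bases were counted for Hoxb3, for Hoxb3os or for neither. Hoxb3os itself was listed with 0.959 to 3.96 normalised reads under WT and 3.96 to 5.97 under Runx1 KO.

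Hoxb2 (ENSMUSG00000075588; chromosome 11, 96350525 to 96354012, plus strand), beyond Hoxb3, was near the limit of detection. It had 2, 5 and 5 reads under WT and 4, 1 and 4 under Runx1 KO, against a floor of 3 reads that a count of 0 would allow. A difference between the groups was not detectable at this depth. In the annotation 27.3% of the exon bases of Hoxb2 also lie in exons of Hoxb3os. As for Hoxb3, it is not known how reads from the shared bases were counted.

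Of the partners of HOX proteins, Meis1 (ENSMUSG00000020160; chromosome 11, 18879817 to 19018985, minus strand) had 629, 515 and 962 normalised reads under WT and 1457, 1514 and 1158 under Runx1 KO. WT replicate 3 was again the highest of its group, and Runx1 KO replicate 3 the lowest of the other. The mean under Runx1 KO was 1.96 times that under WT, a log2 change of 1.01 (SE 0.23, limma adjusted p 0.0221). The call was lost without WT replicate 1, WT replicate 2 or Runx1 KO replicate 2, where the limma adjusted p reached 0.0846. Without WT replicate 3 the log2 change was 1.26. In the annotation 9.77% of the exon bases of Meis1 are shared with Gm37818 on the same strand.

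Pbx3 (ENSMUSG00000038718; chromosome 2, 34171457 to 34373142, minus strand), a dimer partner of HOXA9 and MEIS1, had 194, 202 and 260 normalised reads under WT and 222, 234 and 188 under Runx1 KO. The groups overlapped throughout. Its log2 change was -0.02 (SE 0.16, limma adjusted p 0.939) and its 95% interval ran from -0.39 to 0.35. The sign was positive with library totals as scaling (0.0616).

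**Figure D2:**
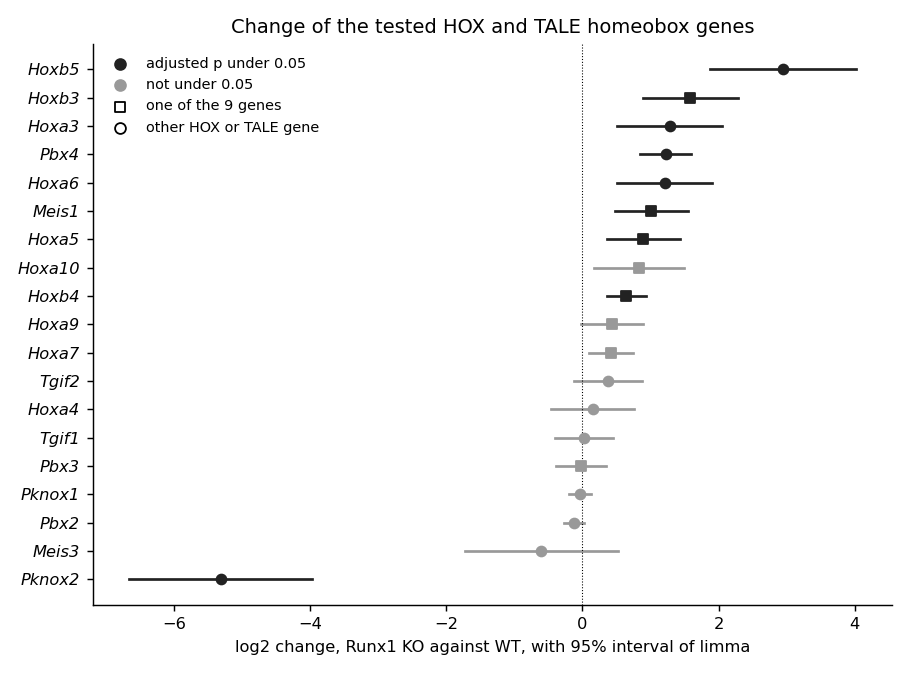
Log2 change with its 95% interval from limma for 19 tested HOX and TALE genes, squares for the 8 tested genes of the 9 and circles for other HOX or TALE genes, black where the adjusted p was under 0.05 and grey elsewhere. All 10 HOX genes lie above 0, and Hoxb5 and Pknox2 stand at the ends.

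The order of the 9 genes within a group was read from normalised reads per kilobase of annotated exon. Exon bases shared with other genes, as in Hoxb2 and Hoxb3, were included in this length. Under WT, Hoxa7 was highest (103 ± 10.6, SD, n = 3), followed by Hoxa9 (81.1 ± 23.3), Meis1 (66.7 ± 22.1), Hoxb4 (52.5 ± 3.57), Pbx3 (35.8 ± 5.90), Hoxa5 (27.3 ± 6.02), Hoxa10 (12.9 ± 4.61), Hoxb3 (6.07 ± 2.31) and Hoxb2 (1.13 ± 0.488). The ranges of Hoxa7 and Hoxa9, Hoxa9 and Meis1, Meis1 and Hoxb4, and Pbx3 and Hoxa5 overlapped. Within each of the 3 libraries, however, Hoxa7 lay above Hoxa9, Hoxa9 above Meis1 and Pbx3 above Hoxa5, and only Meis1 and Hoxb4 changed places, with Meis1 above in 2 of 3. Under Runx1 KO the order was Hoxa7 (138 ± 19.1), Meis1 (131 ± 18.2), Hoxa9 (107 ± 9.31), Hoxb4 (82.4 ± 3.63), Hoxa5 (50.6 ± 7.17), Pbx3 (35.1 ± 3.90), Hoxa10 (22.5 ± 3.86), Hoxb3 (17.9 ± 2.5) and Hoxb2 (0.875 ± 0.512). There Hoxa5 stood above Pbx3 in every library, whereas the ranges of Hoxa7 and Meis1, Meis1 and Hoxa9, and Hoxa10 and Hoxb3 overlapped. Of these pairs Meis1 lay above Hoxa9 in all 3 libraries, and the first gene lay above the second in 2 of 3 for the others. These were middling to low levels: by reads per kilobase, 41.3% of the tested genes lay below Hoxa7 under WT and 47.2% under Runx1 KO.

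WT replicate 3 was the highest WT library in 7 of the 9 genes, all but Hoxb2 and Hoxb4, and the lowest in 0. It was also the highest WT library in 8 of the 10 stem and multipotent markers listed below. How often this library was the highest over all tested genes was not counted. Among the libraries labelled Runx1 KO the order was mixed, with replicate 1 highest in 4 genes, replicate 2 in 3 and replicate 3 in 2.

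**Figure D3:**
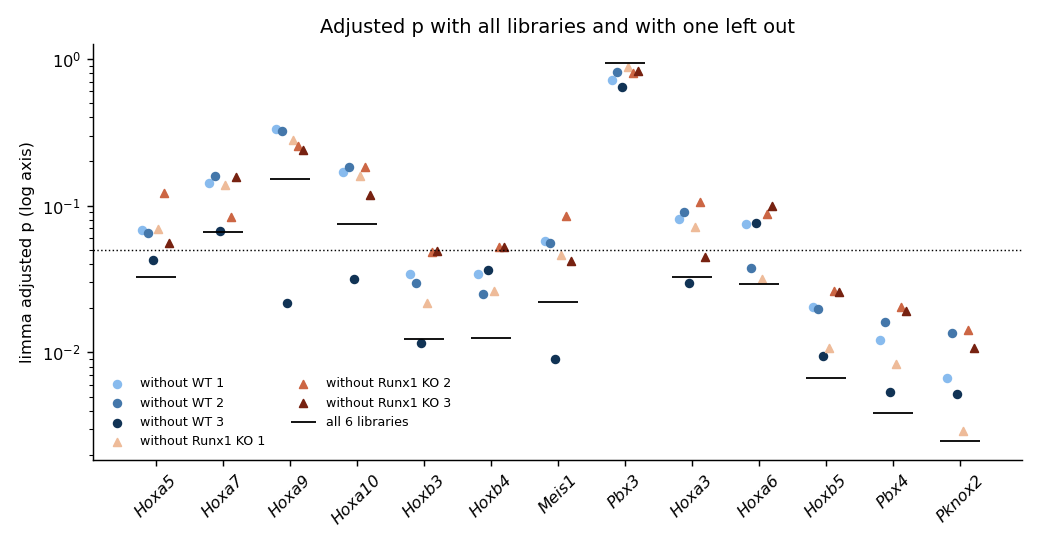
Limma adjusted p (log axis) of 13 tested HOX and TALE genes with all 6 libraries (black line) and with each library left out in turn (points), with the threshold of 0.05 dotted. Hoxb3, Hoxb5, Pbx4 and Pknox2 stay under the line throughout, while Hoxa9 and Hoxa10 come under it only without WT replicate 3.

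The rest of the clusters showed where the 9 genes sit in them. Of 38 HOX genes of the 4 clusters that were looked up, 14 were listed in the files, 8 of 10 in the A cluster, 5 of 10 in the B cluster, 1 of 9 in the C cluster (Hoxc6, at most 5.94 normalised reads) and 0 of 9 in the D cluster. Of these 14, 10 passed the filter on low values, and all 10 had a log2 change above 0, with a median of 0.86. Of the 10, 6 rose and 0 fell. Over all tested genes 49.4% had a log2 change above 0, 10.6% rose and 11.3% fell. Beside the members, the HOX genes that rose were Hoxb5, Hoxa3 and Hoxa6, whereas Hoxa4 did not pass. A weakly expressed gene could pass the filter through the group in which it was higher, so these counts describe the 10 genes and not the clusters.

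Hoxb5, the neighbour of Hoxb4 and a known marker of long-term stem cells in the mouse, had the largest change of any HOX gene tested. It had 6.92, 4.04 and 13.4 normalised reads under WT and 51.3, 50.5 and 97.5 under Runx1 KO. The groups were far apart, at means of 8.13 ± 4.81 and 66.4 ± 26.9 (SD, n = 3). The log2 change was 2.95 (SE 0.45, limma adjusted p 0.00667), and at most 0.0262 when a library was left out. Hoxb5os is an RNA from the opposite strand of the same locus. It had 6.71 to 8.07 normalised reads under WT and 11.9 to 40.8 under Runx1 KO (log2 change 1.57, limma adjusted p 0.0456). Hoxb5 and Hoxb5os passed the filter on low values only through the libraries labelled Runx1 KO, so their rises were favoured by the filter.

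Hoxa6 had 11.9, 19.2 and 13.4 normalised reads under WT and 28.2, 32.7 and 45.7 under Runx1 KO, a log2 change of 1.21 (SE 0.30, limma adjusted p 0.0294). Hoxa3, whose annotated gene spans Hoxa4, Hoxa5 and Hoxa6, had 17.8, 16.1 and 29.7 against 68.0, 52.5 and 37.8, a log2 change of 1.28 (SE 0.33, limma adjusted p 0.0328); 25.4% of its exon bases are also annotated on the opposite strand. Each of these calls was kept in 2 of the 6 fits with 1 library omitted: Hoxa3 lost it without WT replicate 1 or 2 or Runx1 KO replicate 1 or 2 (limma adjusted p up to 0.106), and Hoxa6 without WT replicate 1 or 3 or Runx1 KO replicate 2 or 3 (up to 0.0996). In DESeq2 the adjusted p of Hoxa6 was 0.052. Hoxa4, between them, changed by 0.15 (SE 0.26, limma adjusted p 0.713) with overlapping groups.

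These 8 listed genes of the A cluster summed to 769, 834 and 1130 normalised reads under WT and to 1449, 1205 and 1229 under Runx1 KO. The groups did not overlap, and the sum was highest in Runx1 KO replicate 1. Hoxa9 took 46.7% to 53.2% of this sum under WT and 45.3% to 47.0% under Runx1 KO, and Hoxa7 took 29.3% to 36.2% and 28.7% to 31.9%, so the same pair dominated in every library. The 5 listed genes of the B cluster summed to 166, 179 and 189 normalised reads under WT and to 341, 336 and 427 under Runx1 KO. Hoxb4 took 69.0% to 81.4% of the B cluster's reads under WT and 51.7% to 62.0% under Runx1 KO. The share of Hoxb5 was 2.26% to 7.11% under WT and 15.03% to 22.8% under Runx1 KO, and that of Hoxb3 was 9.60% to 19.3% and 20.2% to 21.2%. For each of these 3 genes the shares of the groups did not overlap.

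**Figure D4:**
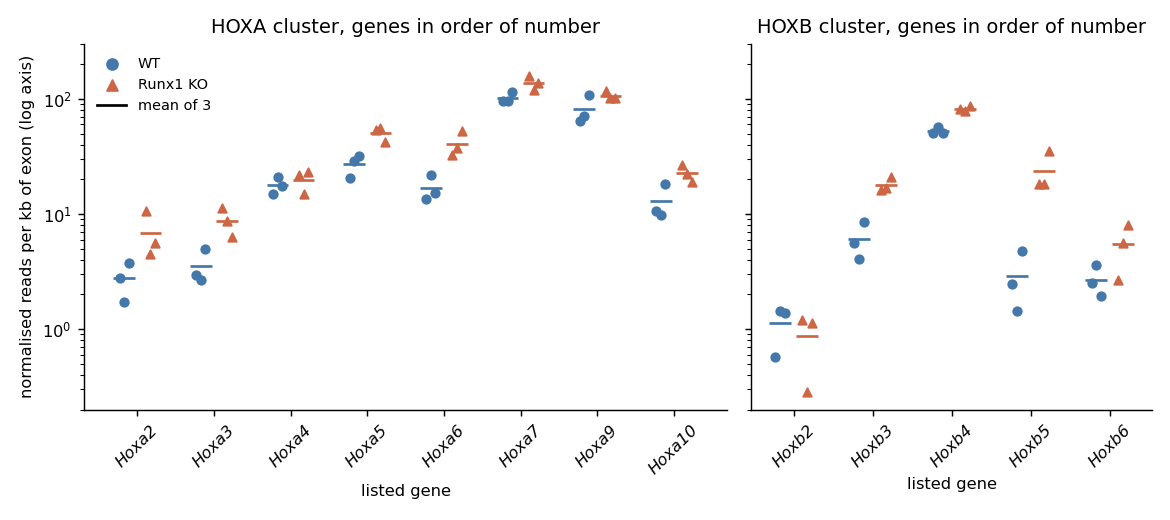
Normalised reads per kilobase of exon (log axis) for the listed HOX genes of the A cluster and of the B cluster, in order of gene number, with WT as circles, Runx1 KO as triangles and the mean of 3 as a line. Hoxa7 and Hoxa9 are the highest of the A cluster and Hoxb4 of the B cluster in both groups, and the groups are furthest apart at Hoxb5.

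Gm11536, annotated on the strand opposite to Hoxb3 and inside it, had 0 reads in all 3 libraries labelled WT and 10, 6 and 10 reads in those labelled Runx1 KO. Its 26 reads under Runx1 KO came to 8.88-fold a floor of 3 reads over the WT group. The counting error of the 26 reads is left out, so 8.88 is not a lower bound. Gm11536 was too low for the test and was singled out after its values were seen. Genes beside the clusters were listed in part. Skap2, beside the A cluster, had a log2 change of -0.23 (SE 0.10) and did not pass (limma adjusted p 0.152). Skap1, beside Hoxb1, had a log2 change of -2.21 (SE 0.86) and did not pass (limma adjusted p 0.108). Calcoco1 and Smug1, beside the C cluster, had log2 changes of 0.29 (SE 0.19, limma adjusted p 0.307) and 0.63 (SE 0.13, limma adjusted p 0.0186), and Mtx2, beside the D cluster, of 0.05 (SE 0.08, limma adjusted p 0.661). Of these neighbours only Smug1, a DNA repair glycosylase gene, passed.

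Among the other TALE genes, 7 of the 8 looked up were listed and tested (median log2 change -0.0351). Of these 1 rose, 1 fell and 5 did not pass, against 10.6% of all tested genes that rose and 11.3% that fell. Pbx4, a PBX paralogue, had 125, 123 and 171 normalised reads under WT and 323, 302 and 346 under Runx1 KO. The groups were well apart, with a log2 change of 1.22 (SE 0.16, limma adjusted p 0.00389), which held whichever library was omitted. Pknox2, a TALE gene of the MEIS and PREP group, had 97, 52 and 25 reads under WT and 1, 0 and 0 under Runx1 KO. From its 174 and 1 reads the WT level was 170-fold the other, with an exact 95% counting interval from 30.1 to 6744 that does not cover the spread between libraries. The log2 change of Pknox2 was -5.32 (SE 0.57, limma adjusted p 0.0025). Pknox2 passed the filter on low values only through the libraries labelled WT, so its fall was favoured by the filter.

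Pbx2, a PBX paralogue, and Pknox1, a PREP gene, were more abundant and did not pass. Per kilobase, Pbx2 was at 715 normalised reads under WT and Pknox1 at 217, against 35.8 for Pbx3. Their log2 changes were -0.13 for Pbx2 (95% interval -0.28 to 0.02) and -0.04 for Pknox1 (-0.19 to 0.12), with limma adjusted p values of 0.194 and 0.736; the sign of Pknox1 turned with library totals as scaling (0.0472).

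The regulators that act on HOX chromatin were given by a list of 21 genes, of which 18 were tested, with a median log2 change of 0.06. In this list 2 rose, 1 fell and 15 did not pass, against 10.6% of all tested genes that rose and 11.3% that fell. Kmt2a, which encodes the methyltransferase MLL that maintains HOX expression, had 4525, 4417 and 4141 normalised reads under WT and 6789, 9746 and 9571 under Runx1 KO. The groups were apart, with Runx1 KO replicate 1 nearest to WT, and the log2 change was 0.98 (SE 0.14, limma adjusted p 0.00506). Mllt3, whose product AF9 binds acetylated histones in MLL-linked elongation complexes and maintains stem cells, rose by 0.78 (SE 0.08, limma adjusted p 0.00265). Dpy30, a core subunit of the MLL-family complexes, fell by 0.30 on the log2 scale (SE 0.07, limma adjusted p 0.0319). Other subunits and cofactors, among them Men1, Psip1, Dot1l, Wdr5, Rbbp5 and Ash2l, did not pass. When single libraries were omitted, the call of Dpy30 held only without WT replicate 1 and was lost in the other 5 fits (limma adjusted p up to 0.0935). The count of 3 was 6 in DESeq2 and 6 with library totals as scaling. Cdx1, Cdx2 and Cdx4, which encode activators of HOX genes in the embryo, were not listed.

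Genes described as targets of HOXA9 and MEIS1 formed a list of 19, of which 17 were tested; 7 rose, 2 fell and 8 did not pass, with a median log2 change of 0.47. Among the genes that passed, the largest rises were in Hlf (1.04, SE 0.19), a stem cell factor, Erg (0.64, SE 0.08), an ETS factor, Myb (0.53, SE 0.09), a proliferation factor of progenitors, and Lmo2 (0.50, SE 0.06), an adaptor of stem cell transcription complexes. The limma adjusted p values of these 4 ran from 0.00288 to 0.0106. Id2, an inhibitor of E proteins, fell by 1.85 on the log2 scale (SE 0.23, limma adjusted p 0.00346), and Bcl2, a survival factor, fell by 0.58 (SE 0.11, limma adjusted p 0.0122). Members of this list thus moved in both directions. Over all tested genes 10.6% rose and 11.3% fell.

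Homeobox genes of blood cells outside the HOX and TALE families served as a comparison. Of 15 such genes 14 were tested, with a median log2 change of 0.09. Among them 1 rose, 0 fell and 13 did not pass, against 10.6% of all tested genes that rose and 11.3% that fell. The riser was Zhx3, a zinc finger and homeobox repressor (0.42, SE 0.09, limma adjusted p 0.0183), and its call was lost without WT replicate 3, Runx1 KO replicate 2 or Runx1 KO replicate 3 (limma adjusted p 0.0522, 0.0833 and 0.0735). At an unadjusted limma p under 0.05, 3 of these genes were lower, against 0 called lower in edgeR and 1 in DESeq2.

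**Figure D5:**
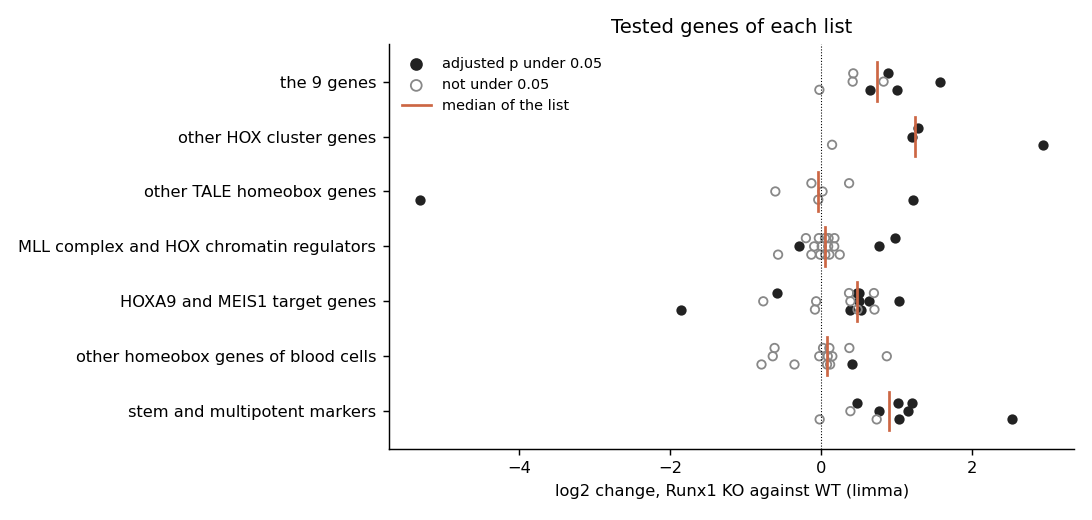
Log2 change from limma of each tested gene in 7 lists, filled where the adjusted p was under 0.05, with the median of the list as a line. The medians run from -0.0351 for the other TALE genes to 1.25 for the other HOX genes.

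The closest profiles over the 6 libraries were measured by the root mean square distance of centred log2 values, a description over libraries in 2 groups. The genes nearest to Meis1 were Hlf (0.0721), Abca4 (0.0808), the homeobox gene Nkx2-3 (0.090) and Gm38077 (0.0908). Those nearest to Hoxa9 were Gm15964 (0.0766), Smim27 (0.0874), Abhd8 (0.0889) and 2310034G01Rik (0.0915). Hlf had 830, 707 and 1192 normalised reads under WT and 1826, 2023 and 1658 under Runx1 KO, with the same order of libraries under WT as Meis1.

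The cells are a mixture, and fewer cells of a type cannot be told apart here from less RNA per cell. Markers of stem and multipotent cells moved with the members: of 10 markers 7 rose and 0 fell, and their summed level was 9992 to 12893 normalised reads under WT and 15633 to 18211 under Runx1 KO. Over all tested genes, for comparison with these and the following counts, 10.6% rose and 11.3% fell. Markers of mature or committed cells differed by type. Of 10 neutrophil granule markers 8 fell and 0 rose, with sums of 293740 to 376360 under WT and 139000 to 197520 under Runx1 KO. These falls were uneven, with log2 changes of -0.35 in Elane and -0.41 in Prtn3. Ltf, Camp, Ngp and Lcn2 were at -2.49, -2.43, -2.64 and -2.42. Mpo (-0.14) and Mmp8 (-1.55) did not pass. Of 10 B-lymphoid markers 6 fell and 0 rose (6699 to 29431 against 1229 to 3409), and of 8 mast cell and basophil markers 6 fell and 0 rose (12612 to 17099 against 9658 to 12062). The median log2 change of the mast cell and basophil markers was -3.06, and 2 of them were above 0. Their sums therefore understate the fall of most of these markers. Of 9 T-lymphoid markers 0 passed in limma (2 lower at an unadjusted p under 0.05; 0 called in edgeR and 1 in DESeq2; sums 1057 to 1374 against 345 to 1206), of 10 monocyte and macrophage markers 1 rose and 3 fell (57994 to 67633 against 50866 to 67545), and of 10 erythroid markers 0 rose and 3 fell in limma (3 higher and 3 lower in DESeq2, 0 and 2 in edgeR, and 3 higher at an unadjusted p under 0.05; sums 19096 to 31180 against 18073 to 31522). Of 9 megakaryocyte markers 7 were tested, of which 4 rose and 0 fell in limma, with 1 called lower in DESeq2 and 0 in edgeR (3592 to 4484 against 4716 to 7324). Stromal and endothelial markers, from cells that also express HOX genes, were at 1228 to 1453 normalised reads under WT and 590 to 815 under Runx1 KO over 8 listed genes of 10; 7 were tested, of which 5 fell and 1 rose. No listed marker was at 0 throughout a group. Single libraries at 0 were WT replicate 1 for Gp6, a platelet receptor gene, and Runx1 KO replicate 2 for Adipoq, an adipocyte gene. The part of these shifts in the values of the 9 genes was not tested.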

How the data were processed

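The deposited files of the 6 libraries hold a signal per gene. The submitters' processing notes name HISAT2, HTSeq 0.9.1 and the build mm10 (GRCm38), but not the annotation, strand setting or normalization. In each file 100% of the deposited values were whole multiples of the smallest positive one (tolerance 0.001), so the signal is read counts divided by a size factor, from 0.956 to 1.04, and reads were recovered from it; 0 listed genes had fewer than 10 reads in all. The recovered reads entered edgeR and DESeq2 as alternatives. Symbols came from a table of Ensembl identifiers, and positions and exon lengths from GENCODE M21.

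Genes passed filterByExpr of edgeR 4.0.16 (minimum count 10, minimum total 15), which kept 15410 and left out 4687. limma 3.58.1 (lmFit, eBayes with trend) was fitted to log2(value + 1) with a single term for the group; p-values were two-sided and adjusted by Benjamini-Hochberg. An exact permutation test of 3 against 3 cannot go below 0.1 and was not used. The procedure was tested on simulated counts.

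The 9 genes and all gene lists were chosen with earlier results of these data known; 2 genes of the lists are not reported here. Named genes were the 9, other HOX and TALE genes past the threshold, up to 4 called genes in each direction of other lists, 4 nearest profiles of Hoxa9 and of Meis1, genes inside or beside the clusters, and Runx1 and Kit. Alternatives were edgeR with TMM, DESeq2 1.42.0, pseudocounts of 0.5 and 5, TMM or library totals as scaling, no filter, a mean CPM of at least 1, the replicate block and leaving out each library, with the tested genes kept. As no molecular identifiers were used in counting as far as the labels say, reads may repeat molecules, and floors and counting intervals cover counting error only.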

Additional observations from a re-analysis of the deposited data

How the results depend on the processing

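With all 6 libraries kept, the count of the 9 genes past the threshold was 4 in 8 of 9 alternatives and 5 with library totals as scaling, and the same 4 genes were called in all 9. The count over all genes ran from 3182 to 3911 against 3370. Leaving out each library in turn gave 1 to 6 of the 9 genes and 1349 to 3551 of all genes; fewer samples enter these fits, and the cause of their differences was not tested further. The numbers in the titles did not pair the libraries: same-numbered deviations from the group means correlated at 0.287, 0.129 and -0.0104, so the replicate block is given only here, with 4 of the 9 genes and 3843 genes in all; with the block Hoxa3 and Hoxb5os missed the threshold (limma adjusted p 0.0531 each) and Skap1 and Skap2 passed it (0.045 and 0.0279). Calls among the cell type markers also changed with the block, for example in the following genes. Cd3d, Lck and Cd5 of the T-lymphoid list passed downwards (limma adjusted p 0.0426, 0.0136 and 0.0393). So did Vpreb1, Igll1 and Blnk of the B-lymphoid list (0.0237, 0.0176 and 0.000507). Gata1 and Klf1 of the erythroid list passed upwards (0.0383 and 0.0419). The marker counts given above are without the block. Changes of sign were seen in 3 genes that passed in no setting. With library totals as scaling, Pbx3 had a log2 change of 0.0616 and Pknox1 of 0.0472. Pbx3 was at 0.11 and 0.07 without WT replicate 3 or Runx1 KO replicate 3, so that the fits without a library ran from -0.10 to 0.11 for Pbx3, from -0.0709 to 0.0111 for Pknox1 and from -0.13 to 0.16 for Tgif1. The MLL and chromatin list had 3 called genes in limma and 6 in DESeq2 and with library totals, the other HOX genes 3 and 1 without WT replicate 1 or Runx1 KO replicate 2, and the other homeobox genes 1 and from 0 to 3 with a library left out. Library totals moved the median of all tested genes by 0.08 on the log2 scale. Hoxb2, Hoxa2, Hoxb6 and Hoxc6 were listed but too low to be tested at this depth.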
